A study of Mus musculus with 6 samples.

Results

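The 36 genes described here encode enzymes of central carbon metabolism: 18 of glycolysis and its regulation, 5 of the pentose phosphate pathway, and 13 of pyruvate dehydrogenase and the tricarboxylic acid (TCA) cycle. They were picked by gene symbol, and all 36 were found among the 23183 genes listed. RNA was sequenced from primary group 2 innate lymphoid cells (ILC2) of wild-type (WT) mouse lung, lymphocytes that lack antigen receptors and secrete type 2 cytokines. One group received DTA-1, an antibody that activates GITR, a costimulatory receptor of lymphocytes, and the other an IgG2b isotype control antibody, with 3 libraries each. Both groups were kept for 24 h with interleukins 2, 7 and 33, each at 10 ng/ml, so every library is of cytokine-activated cells and none of resting cells. Whether each library had its own animals or culture is not given in the sources used here, so the p-values reflect only how far these samples differ, which may be technical variation. In bulk RNA, a change in the number of cells of a kind and a change in RNA per cell cannot be told apart.

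Glycolysis splits glucose into pyruvate in the cytosol and yields ATP, and lactate dehydrogenase then turns pyruvate into lactate and restores the NAD that glycolysis needs. The pentose phosphate pathway branches off at glucose 6-phosphate and supplies NADPH and ribose for nucleotides. Pyruvate that enters mitochondria is turned into acetyl-CoA by pyruvate dehydrogenase and is oxidised in the TCA cycle, which feeds the respiratory chain. Activated lymphocytes in general raise glycolysis, in part through the transcription factors Myc and HIF-1, which have many glycolytic genes among their targets.

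Levels are given as FPKM, fragments scaled to transcript length and library depth, which can be compared between genes. The depth of the libraries was estimated at 18800000 to 20700000 fragments, by a method that searches within set bounds. Libraries of the same treatment differed from each other among these genes. IgG2b replicate 1 had the highest level of 18 of the 36 genes, and IgG2b replicate 2 had the lowest level of 15. Over all tested genes, the level in IgG2b replicate 2 relative to the mean of all libraries fell by 0.26 on the log2 scale for each 10 points of GC content, while the slopes of the other libraries lay between -0.049 and 0.10. The summed level of 10 proliferation markers was 525 to 578 FPKM in DTA-1 libraries and 806 to 1395 FPKM in IgG2b libraries, with the highest sum in IgG2b replicate 1. Each of the 10 was lower with DTA-1 without overlap, against 10.5% of all tested genes. All 12 ILC2 markers were above the limit for testing, and their sum was 10260 to 11760 FPKM in DTA-1 libraries against 6509 to 7696 FPKM in IgG2b libraries. Most of that sum was from the cytokine genes Il13 (mean 5422 FPKM with DTA-1, 2326 FPKM with IgG2b) and Il5 (3182 FPKM with DTA-1, 2169 FPKM with IgG2b), while 7 of the 12 markers had a log2 fold change below 0, with a median of -0.22 over the list. Il1rl1, the IL-33 receptor gene (182 FPKM with DTA-1, 253 FPKM with IgG2b), and Klrg1 (34.1 FPKM with DTA-1, 97.2 FPKM with IgG2b) were lower with DTA-1 without overlap. Il13 was higher with DTA-1 without overlap. Together these genes were 25.0% of the 12 markers, against 21.6% of all tested genes without overlap. Most markers of other cells were low, and single genes made up much of several sums. T-cell genes (6 in the files) summed to 8.40 to 9.76 FPKM with DTA-1 and 10.6 to 11.7 FPKM with IgG2b, most of it Cd3g. The sums were 4.71 to 5.09 and 6.86 to 7.39 FPKM for 10 macrophage, monocyte and dendritic cell genes. Most of it was Cd68 and Xcr1, with Marco and Siglecf at 0 in every library. For 7 epithelial genes the sums were 1.99 to 2.74 and 4.67 to 5.03 FPKM. Most of it was Epcam (mean 1.52 FPKM with DTA-1, 3.81 FPKM with IgG2b). For 7 endothelial and fibroblast genes the sums were 19.9 to 38.8 and 31.7 to 43.8 FPKM, with Vwf at 0. Nearly all of it was Pecam1 (mean 26.9 FPKM with DTA-1, 35.9 FPKM with IgG2b). For 6 mast cell and basophil genes the sums were 5.52 to 12.1 and 7.66 to 16.6 FPKM, with Mcpt4 at 0. Nearly all of it was Kit (mean 9.60 FPKM with DTA-1, 13.3 FPKM with IgG2b). For 5 B-cell genes they were 2.93 to 6.46 and 3.36 to 7.23 FPKM, nearly all of it Cd79b, with Pax5 at 0. Genes of natural killer cells and ILC1 (7) and of eosinophils and neutrophils (6) stayed under 2 FPKM in sum in every library. The part of the proliferation sum, the GC slope and these markers in the results that follow was not tested.

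None of the 36 enzyme genes passed the test between DTA-1 and IgG2b. In limma, a linear model with a variance moderated across genes, fitted to log2(FPKM + 1) of 10501 genes and adjusted over all of them, 0 enzyme genes were higher and 0 lower at an adjusted p under 0.05, where 0.0286% of all tested genes were called higher and 0.00952% lower, or 0.0381% in either direction. The smallest adjusted p among them was 0.167, for Pkm. At an unadjusted p under 0.05, 1 enzyme gene was higher (G6pdx) and 1 lower (Pkm), or 1 of 36 in each direction, against 6.22% and 7.73% of all tested genes, or 14% in either direction. The DTA-1 and IgG2b values did not overlap for G6pdx, which was higher with DTA-1, nor for Pkm and Ldha, which were lower. Among all tested genes, 11.2% did not overlap and were higher and 10.5% did not overlap and were lower, or 21.6% in all, so the share among the enzyme genes, 3 of 36 (8.33%), did not exceed the background.

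The median log2 fold change, DTA-1 over IgG2b, was -0.05 for glycolysis, 0.08 for the pentose phosphate pathway and -0.01 for pyruvate dehydrogenase and the TCA cycle, against 0.01 over all 10501 tested genes. These medians depended on single libraries: without IgG2b replicate 1 the glycolytic median was 0.16 and the pentose phosphate median 0.26, and without IgG2b replicate 2 they were -0.17 and -0.056. Without DTA-1 replicate 3 the glycolytic median was 0.042. With any 1 library left out, the pyruvate dehydrogenase and TCA median lay between -0.036 and 0.035. Glycolytic genes lay above 0 in 8 cases and below it in 10, pentose phosphate genes in 3 and 2, and the pyruvate dehydrogenase and TCA genes in 6 and 7. A log2 fold change smaller than 0.2 in size was fitted for 13 of 18, 3 of 5 and 11 of 13 genes. The intervals around these values were wider for many glycolytic genes than for most TCA genes. The SD between libraries of the same treatment had a median of 0.24 on the log2 scale in glycolysis, 0.33 in the pentose phosphate pathway and 0.14 in the pyruvate dehydrogenase and TCA group, against 0.18 over all tested genes.

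**Figure D1:**
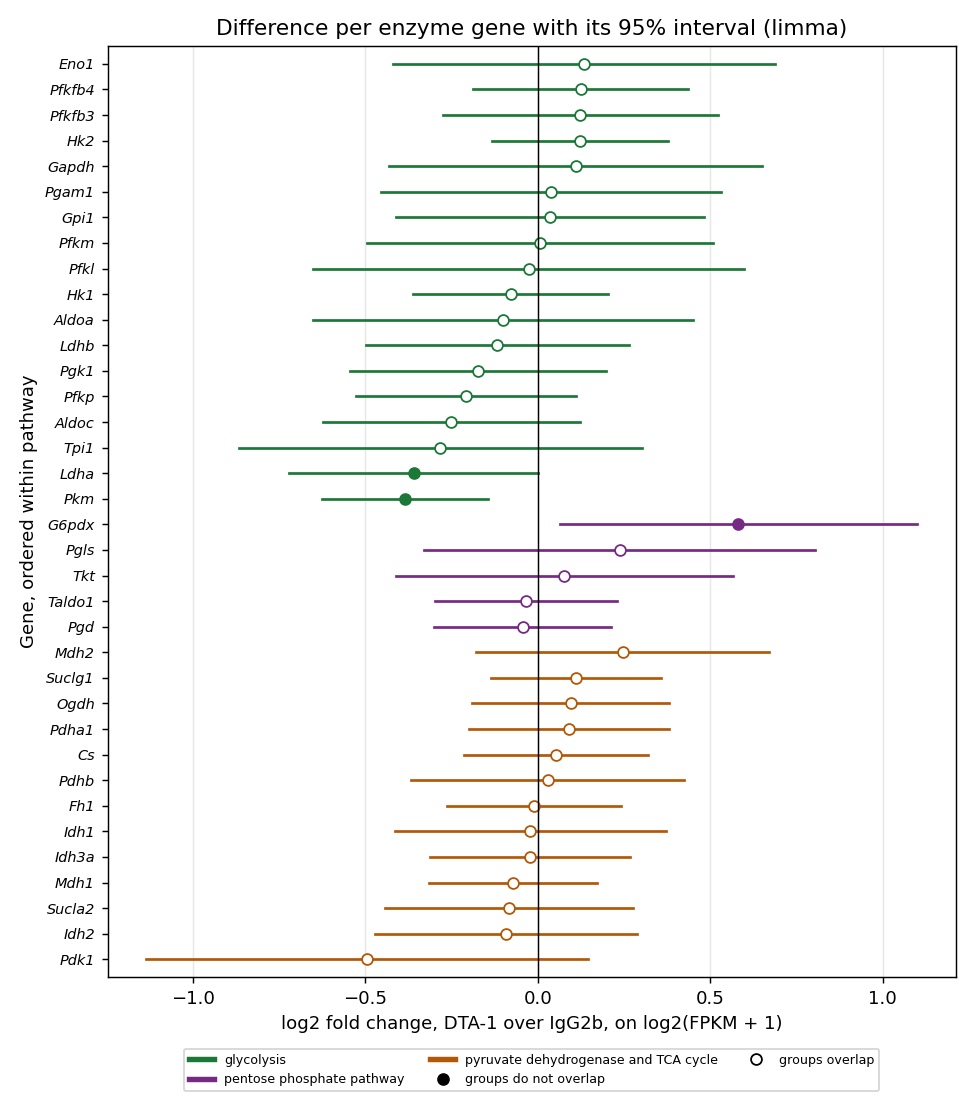
Fitted log2 fold change of each enzyme gene (x axis, DTA-1 over IgG2b on log2(FPKM + 1)), with its 95% interval from limma, ordered within each pathway. Filled points mark the 3 genes whose DTA-1 and IgG2b values did not overlap: Pkm, Ldha and G6pdx. Only the intervals of Pkm and G6pdx leave out 0, before any adjustment for the number of genes.

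Glycolytic genes were by far the most abundant of the 3 groups. Their summed level was 6554, 6015 and 5711 FPKM in DTA-1 replicates 1 to 3, and 8641, 5517 and 6327 FPKM in IgG2b replicates 1 to 3, or 0.981% to 1.08% of all FPKM with DTA-1 and 0.927% to 1.49% with IgG2b. The IgG2b libraries enclosed the DTA-1 libraries, with IgG2b replicate 1 highest and IgG2b replicate 2 lowest of all 6. The pentose phosphate genes summed to 487, 428 and 397 FPKM with DTA-1 against 454, 325 and 446 FPKM with IgG2b. The pyruvate dehydrogenase and TCA genes summed to 889, 848 and 841 FPKM with DTA-1 against 863, 773 and 811 FPKM with IgG2b. Both of these overlapped between the groups too.

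**Figure D2:**
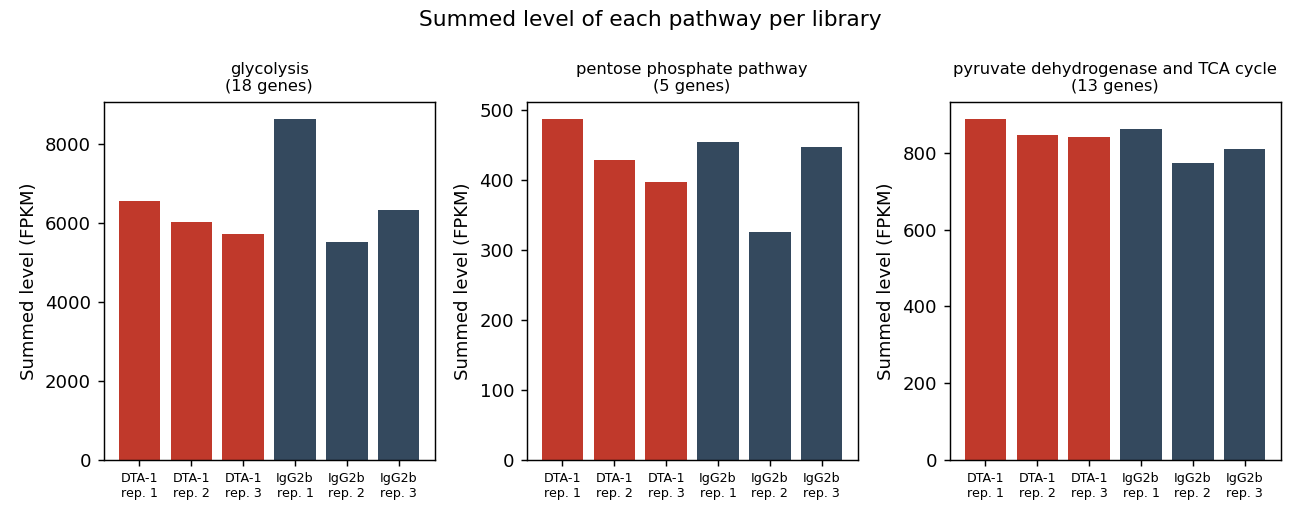
Summed level of the genes of each pathway (y axis, FPKM, from 0) in each library (x axis, DTA-1 in red, IgG2b in dark blue). The glycolytic sum of IgG2b replicate 1, 8641 FPKM, stands above all other libraries, which lie between 5517 and 6554 FPKM.

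By mean level over all libraries, Ldha ranked 91 among the 23183 genes, Gapdh 92, Pkm 102, Eno1 122, Aldoa 127 and Pgk1 139. Pgam1 followed at rank 260, the mitochondrial malate dehydrogenase gene Mdh2 at 287, Tpi1 at 290 and Gpi1 at 512. The order of neighbours is uncertain: Gapdh averaged 1234 ± 85.9 FPKM with DTA-1 and 1191 ± 408 FPKM with IgG2b (SD, n = 3 each), and with IgG2b the means of Ldha and Pkm lie within 1 SD of it. The least abundant members were Pfkfb4, Aldoc and Idh1, with means between 0.894 and 2.11 FPKM in either group. All 36 genes passed the filter of at least 1 FPKM in at least 3 libraries.

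**Figure D3:**
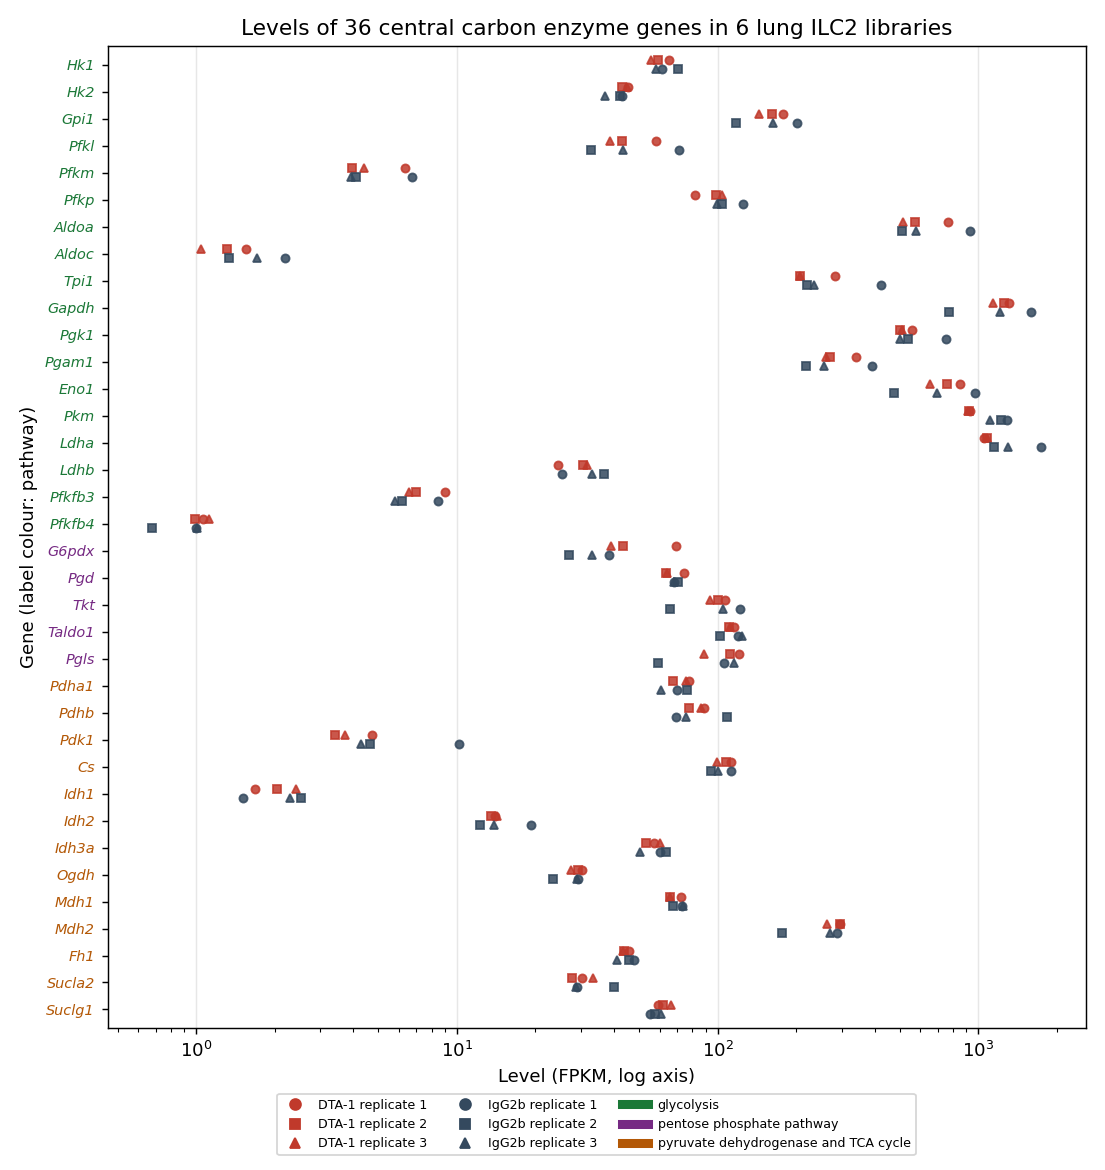
Level of each enzyme gene (y axis, coloured by pathway) in every library (x axis, FPKM, log axis), with DTA-1 in red above IgG2b in dark blue and a symbol for each replicate. Levels span from under 1 FPKM for Pfkfb4 to 1740.3 FPKM for Ldha, and DTA-1 and IgG2b symbols overlap for all but Pkm, Ldha and G6pdx.

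Of the 18 glycolytic genes, 2 (11.1%) had groups that did not overlap, Pkm and Ldha, both lower with DTA-1. Among all tested genes, 10.5% were lower without overlap, or 21.6% in either direction. Pkm encodes pyruvate kinase of muscle and proliferating cells, which makes pyruvate and ATP from phosphoenolpyruvate. It measured 928, 925 and 916 FPKM in DTA-1 replicates 1 to 3, against 1293, 1219.8 and 1109 FPKM in IgG2b replicates 1 to 3. Every DTA-1 library lay below every IgG2b library, and the DTA-1 libraries were close together. The log2 fold change was -0.38 ± 0.11 (SE), with a 95% interval of -0.63 to -0.14, a ratio of 0.766 (limma, unadjusted p = 0.00615, adjusted p = 0.167). With each library left out in turn it lay between -0.44 and -0.33. The tables give 1 value per gene, so the M1 and M2 splice forms of Pkm were not told apart.

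Ldha encodes the A subunit of lactate dehydrogenase, the form that prevails in cells that release lactate. Its level was 1051, 1082 and 1076 FPKM in the DTA-1 libraries, against 1740.3, 1145 and 1297 FPKM in the IgG2b libraries. The DTA-1 libraries were again close together and below all IgG2b libraries, of which IgG2b replicate 1 stood far above the others. The log2 fold change was -0.36 ± 0.16 (95% interval -0.72 to 0.0014; limma adjusted p = 0.359). It was -0.19 without IgG2b replicate 1 and -0.49 without IgG2b replicate 2. Ldhb, the B subunit gene, was far lower, at 24.5, 30.5 and 31.6 FPKM with DTA-1 and 25.2, 36.6 and 32.97 FPKM with IgG2b. Ldhb made up 2.28%, 2.74% and 2.86% of the summed lactate dehydrogenase level with DTA-1 and 1.43%, 3.09% and 2.48% with IgG2b, with overlap between the groups.

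The promoters of Ldha and Pkm are shown because these genes had lower levels in all DTA-1 libraries, and that of G6pdx because it had higher ones. Each is the RefSeq window from 250 bases before to 50 after a start of the gene on GRCm38.p6, the assembly of mm10, and the most upstream of the windows listed is given. Capitals mark the core letters of hypoxia response elements, ACGTG or GCGTG, on either strand, which include the E-box CACGTG that Myc and related factors bind.
Ldha, chr7:46845554-46845853, plus strand: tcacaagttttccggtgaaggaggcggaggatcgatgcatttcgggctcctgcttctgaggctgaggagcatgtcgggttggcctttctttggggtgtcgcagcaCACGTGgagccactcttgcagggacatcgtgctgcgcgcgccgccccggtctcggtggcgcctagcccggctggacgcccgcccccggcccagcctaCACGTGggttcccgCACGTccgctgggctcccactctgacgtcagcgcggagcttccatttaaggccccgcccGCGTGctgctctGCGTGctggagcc
Pkm, chr9:59656326-59656625, plus strand: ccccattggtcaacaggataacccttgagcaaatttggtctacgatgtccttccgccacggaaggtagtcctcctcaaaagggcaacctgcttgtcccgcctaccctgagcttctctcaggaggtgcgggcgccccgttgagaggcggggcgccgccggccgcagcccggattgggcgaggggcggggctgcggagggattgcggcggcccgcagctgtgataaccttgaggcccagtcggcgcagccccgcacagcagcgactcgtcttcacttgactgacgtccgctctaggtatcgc
G6pdx, chrX:74428831-74429130, minus strand: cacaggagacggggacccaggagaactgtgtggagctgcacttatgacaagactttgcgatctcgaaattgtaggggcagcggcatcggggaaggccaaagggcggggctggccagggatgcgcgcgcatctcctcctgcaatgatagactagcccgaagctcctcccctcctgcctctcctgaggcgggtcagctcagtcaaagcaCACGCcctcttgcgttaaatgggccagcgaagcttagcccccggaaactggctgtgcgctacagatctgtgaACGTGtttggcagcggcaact
The Ldha window held 7 matches, of which 4 lay in 2 E-boxes that each match on both strands. The G6pdx window held 2 matches and no E-box. The Pkm window shown held 0 matches, while the other window of that gene held 2. Of 35 enzyme genes with a listed promoter, 31 (88.6%) held a hypoxia core in at least 1 window, against 46.7% of 27025 genes with a promoter in the table. By pathway this was 16 of 18, 5 of 5 and 10 of 12 genes. An E-box was found in 4 of the 35 genes (11.4%), against 8.09% of all. The number of windows per gene differs between these sets. Counted by window, the hypoxia core was in 81.8% of 55 enzyme gene windows, against 43.8% of 32851 windows. This background was neither limited to tested genes nor matched for base content. Such 5-letter matches are common and describe the sequence only.

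Genes in the middle of glycolysis, from glyceraldehyde 3-phosphate to phosphoenolpyruvate, overlapped between the groups. Gapdh, which makes the NADH of glycolysis, measured 1311, 1250.2 and 1141 FPKM with DTA-1, against 1589, 773 and 1211 FPKM with IgG2b. Its lowest value was in IgG2b replicate 2 and its highest in IgG2b replicate 1, and the fitted difference of 0.11 ± 0.24 became -0.17 without replicate 2 and 0.35 without replicate 1 of IgG2b. Eno1, the enolase gene, ranked the libraries in the same order, at 848, 761 and 655 FPKM with DTA-1 and 972, 474 and 693 FPKM with IgG2b. Pgam1, the phosphoglycerate mutase gene, also had its highest and lowest values in IgG2b replicates 1 and 2, at 338, 269.6 and 259.6 FPKM with DTA-1 and 389, 219 and 255 FPKM with IgG2b. Pgk1, the X-linked phosphoglycerate kinase gene, had 555, 501 and 511 FPKM with DTA-1 against 755, 538 and 502 FPKM with IgG2b, a log2 fold change of -0.17 ± 0.16. Several of these genes have near-identical copies in the mouse genome, among them the intronless gene Eno1b (13.9 to 16.5 FPKM with DTA-1, 10.3 to 20.9 FPKM with IgG2b), and how shared reads were assigned is not given in the sources used here.

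Upper glycolysis gave small fitted differences, with an SE of 0.11 for Hk2, 0.12 for Hk1 and 0.19 for Gpi1. The hexokinase genes, whose products trap glucose as glucose 6-phosphate, were both expressed. Hk1 measured 65.1, 59.0 and 55.6 FPKM with DTA-1 and 61.3, 70.8 and 58.0 FPKM with IgG2b. Hk2, the inducible form, measured 45.5, 43.0 and 44.8 FPKM with DTA-1 and 43.0, 42.4 and 36.9 FPKM with IgG2b. The lowest DTA-1 value of Hk2 lay just under the highest IgG2b value, and its log2 fold change was 0.12 ± 0.11 (95% interval -0.13 to 0.38). Hk2 thus made up 41.1%, 42.1% and 44.6% of the summed hexokinase level with DTA-1 and 41.2%, 37.5% and 38.9% with IgG2b. Gpi1, which converts glucose 6-phosphate to fructose 6-phosphate, averaged 162 ± 17.0 FPKM with DTA-1 and 161 ± 42.1 FPKM with IgG2b.

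Phosphofructokinase, the main control point of glycolysis, was mostly of the platelet type. Pfkp measured 82.1, 98.2 and 104 FPKM with DTA-1 and 125, 104 and 99.1 FPKM with IgG2b, and Pfkl, the liver type, 57.8, 42.9 and 38.7 FPKM with DTA-1 and 71.4, 32.8 and 43.3 FPKM with IgG2b. Pfkm, the muscle type, stayed between 3.97 and 6.35 FPKM with DTA-1 and between 3.91 and 6.72 FPKM with IgG2b. The Pfkp share was 56.1%, 67.7% and 70.6% with DTA-1 and 61.6%, 73.8% and 67.7% with IgG2b. In both groups it was lowest in replicate 1, where Pfkl was highest. Pfkfb3 and Pfkfb4, whose products set the level of the phosphofructokinase activator fructose 2,6-bisphosphate, averaged 7.51 ± 1.32 and 1.06 ± 0.0692 FPKM with DTA-1 and 6.83 ± 1.46 and 0.894 ± 0.187 FPKM with IgG2b.

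The aldolase and triose phosphate genes were highest in IgG2b replicate 1. Aldoa, which splits fructose 1,6-bisphosphate, had 767, 569.8 and 512 FPKM with DTA-1 and 931, 511 and 579 FPKM with IgG2b. Tpi1, which interconverts the triose phosphates, had 283, 207 and 206 FPKM with DTA-1 and 425, 220.1 and 233 FPKM with IgG2b. Its log2 fold change of -0.28 ± 0.25 was 0.019 without IgG2b replicate 1. Aldoc, the brain form of aldolase, was near the filter of 1 FPKM, with 1.30 ± 0.256 FPKM with DTA-1 and 1.75 ± 0.428 FPKM with IgG2b. As a share of summed aldolase it was 0.202%, 0.231% and 0.203% with DTA-1 and 0.235%, 0.262% and 0.294% with IgG2b, without overlap. Of the other isoenzyme shares, that of Mdh2 was also without overlap, while those of Hk2, Pfkp, Pfkl, Pfkm, Ldhb, Pfkfb3 and Idh1 overlapped.

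**Figure D4:**
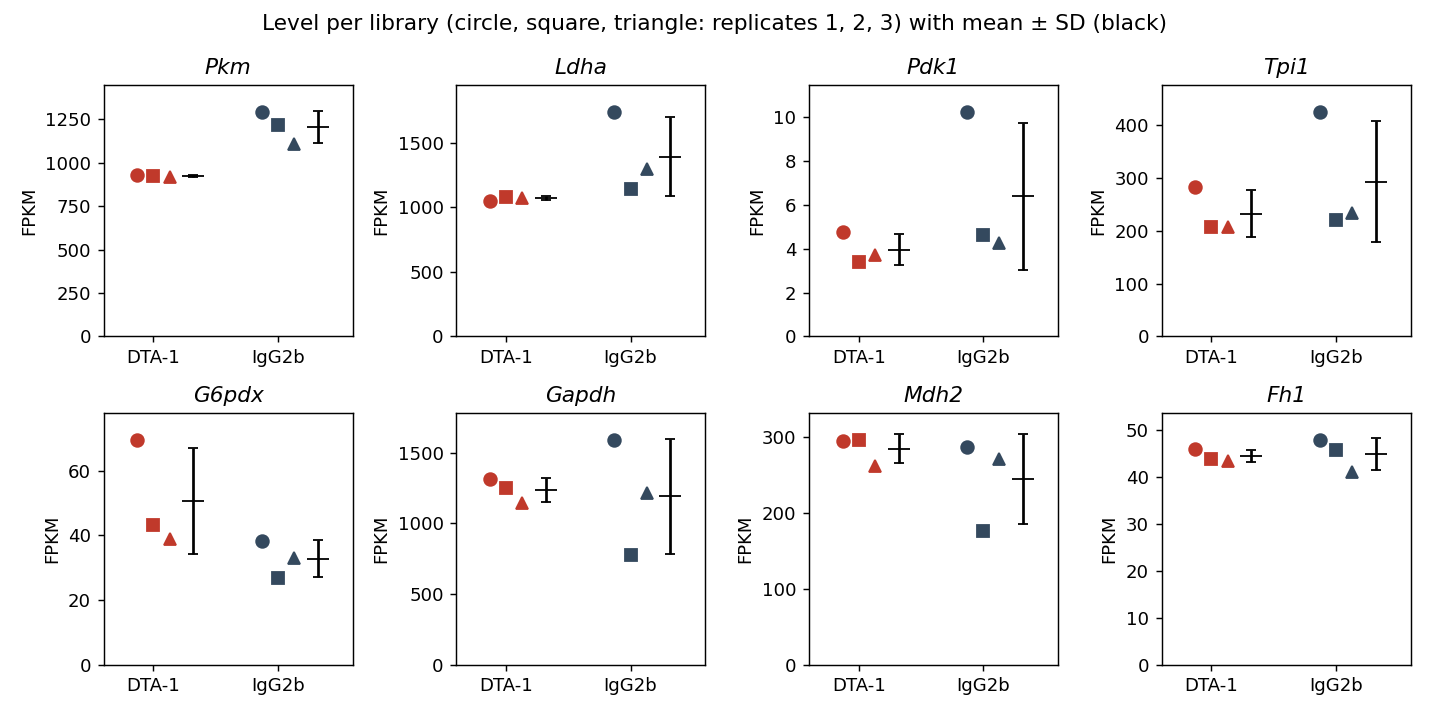
Level (y axis, FPKM, from 0) of 8 enzyme genes per library, with DTA-1 in red left of IgG2b in dark blue, and the mean ± SD in black. Pkm and Ldha lie lower in all DTA-1 libraries and G6pdx higher, Pdk1 and Tpi1 have a single high value in IgG2b replicate 1, Gapdh and Mdh2 a low one in IgG2b replicate 2, and Fh1 stays between 41.0 and 47.7 FPKM throughout.

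In the pentose phosphate pathway, the gene of the entry enzyme had the largest fitted difference. G6pdx, the X-linked gene of glucose 6-phosphate dehydrogenase, which commits glucose to the pathway and makes NADPH, measured 69.5, 43.3 and 39.0 FPKM with DTA-1, against 38.3, 26.9 and 33.1 FPKM with IgG2b. The groups did not overlap, but the lowest DTA-1 value and the highest IgG2b value were less than 1 FPKM apart, and DTA-1 replicate 1 stood apart from the other libraries. The log2 fold change was 0.58 ± 0.23 (95% interval 0.065 to 1.10; limma, unadjusted p = 0.0318, adjusted p = 0.302), a ratio of 1.497, and it was 0.33 without DTA-1 replicate 1. Pgls, the gene of the next enzyme, 6-phosphogluconolactonase, measured 121, 111 and 88.6 FPKM with DTA-1 and 106, 59.3 and 115 FPKM with IgG2b. Its difference of 0.24 ± 0.25 was -0.056 without IgG2b replicate 2. Pgd, which makes the second NADPH and releases ribulose 5-phosphate, measured 74.2, 63.2 and 63.9 FPKM with DTA-1 and 68.4, 70.7 and 68.0 FPKM with IgG2b.

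The genes of the non-oxidative branch, which exchanges carbon between pentoses and glycolytic intermediates, overlapped between the groups. Tkt, the transketolase gene, had 107, 100.2 and 93.4 FPKM with DTA-1 and 122, 65.9 and 105 FPKM with IgG2b. Taldo1, the transaldolase gene, had 115, 110.3 and 112 FPKM with DTA-1 and 119.5, 102 and 124 FPKM with IgG2b, with a log2 fold change of -0.034 and a 95% interval of -0.30 to 0.23. Of the 5 pentose phosphate genes, 4 were lowest in IgG2b replicate 2.

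At the entry of the TCA cycle, no gene of pyruvate dehydrogenase or its inhibitor passed the test, and all overlapped between the groups. Pdha1 and Pdhb, the genes of the E1 subunits, averaged 73.6 ± 5.52 and 84.5 ± 5.94 FPKM with DTA-1 and 69.2 ± 7.91 and 84.3 ± 21.0 FPKM with IgG2b. Pdk1, a kinase gene whose product inactivates pyruvate dehydrogenase and which is a known HIF-1 target, measured 4.74, 3.40 and 3.73 FPKM with DTA-1, against 10.2, 4.64 and 4.28 FPKM with IgG2b. All DTA-1 values except that of replicate 1 lay below the IgG2b values. The log2 fold change of -0.49 ± 0.28 (limma adjusted p = 0.495) was -0.15 without IgG2b replicate 1, the library with the highest proliferation sum.

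Enzymes of the cycle itself differed in how even they were, with an SD between libraries of the same treatment of 0.083 for Fh1 and 0.11 for Cs, against 0.21 for Sucla2 and 0.28 for Mdh2, on the log2 scale. Cs, the citrate synthase gene, measured 112, 108 and 99.2 FPKM with DTA-1 and 113, 94.6 and 101 FPKM with IgG2b, a log2 fold change of 0.053 with a 95% interval of -0.21 to 0.32. Idh3a, the catalytic subunit gene of the NAD-linked isocitrate dehydrogenase, averaged 56.8 ± 3.69 FPKM with DTA-1 and 57.9 ± 6.77 FPKM with IgG2b. Ogdh, of the 2-oxoglutarate dehydrogenase complex, averaged 28.9 ± 1.29 FPKM with DTA-1 and 27.1 ± 3.27 FPKM with IgG2b. Fh1, the fumarase gene, measured 45.9, 43.8 and 43.4 FPKM with DTA-1 and 47.7, 45.7 and 41.0 FPKM with IgG2b, and its 95% interval ran from -0.26 to 0.24.

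The succinyl-CoA ligase and malate dehydrogenase genes overlapped between the groups. Suclg1, the shared alpha subunit, measured 59.1, 61.6 and 66.3 FPKM with DTA-1 and 55.1, 57.3 and 60.4 FPKM with IgG2b, with 1 DTA-1 library inside the IgG2b range. Sucla2, the ATP-forming beta subunit, averaged 30.4 ± 2.87 FPKM with DTA-1 and 32.6 ± 6.57 FPKM with IgG2b. Mdh2, the mitochondrial malate dehydrogenase gene, had 295, 296 and 262 FPKM with DTA-1 and 286, 177 and 270.5 FPKM with IgG2b, and its log2 fold change of 0.25 ± 0.18 was 0.029 without IgG2b replicate 2. Mdh1, the cytosolic form, had 72.2, 65.6 and 65.7 FPKM with DTA-1 and 72.8, 67.5 and 73.6 FPKM with IgG2b, and had the smallest SD between libraries of the same treatment among the 36 genes, 0.073 on the log2 scale. The Mdh2 share of the malate dehydrogenases was 80.3%, 81.9% and 80.0% with DTA-1 and 79.7%, 72.3% and 78.6% with IgG2b, without overlap but with IgG2b replicate 1 close to the lowest DTA-1 library.

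The NADP-linked isocitrate dehydrogenase genes were low. Idh2, the mitochondrial form, measured 14.0, 13.5 and 14.3 FPKM with DTA-1 and 19.3, 12.2 and 13.9 FPKM with IgG2b. Idh1, the cytosolic form, measured 1.69, 2.04 and 2.42 FPKM with DTA-1 and 1.52, 2.52 and 2.30 FPKM with IgG2b. Both overlapped between the groups, and IgG2b replicate 1 had the highest Idh2 and the lowest Idh1.

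**Figure D5:**
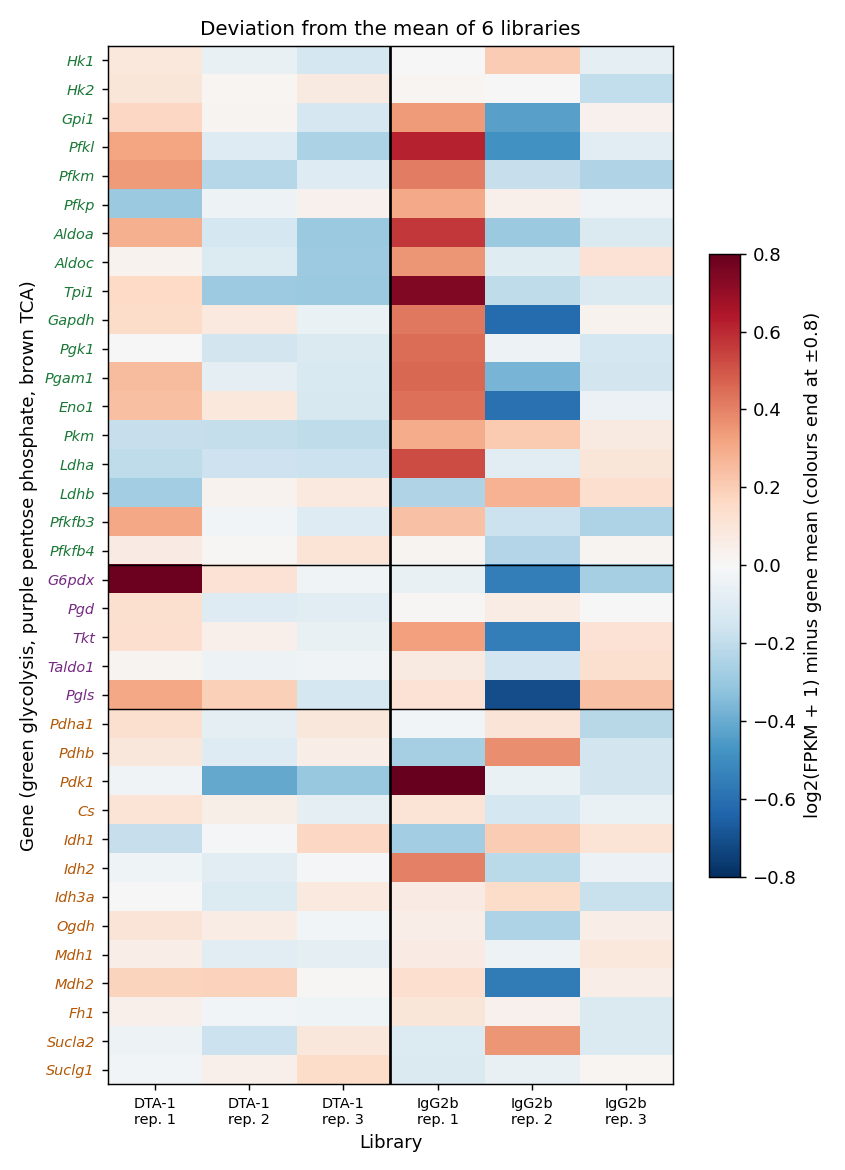
Deviation of each enzyme gene (y axis) from its mean over the 6 libraries, in log2(FPKM + 1), for each library (x axis, DTA-1 left of IgG2b). IgG2b replicate 1 is high for 13 of 18 glycolytic genes as the highest library, IgG2b replicate 2 is lowest for 7 of 18 glycolytic and 4 of 5 pentose phosphate genes, and most pyruvate dehydrogenase and TCA rows are pale, with Pdk1 in IgG2b replicate 1 and Mdh2 in IgG2b replicate 2 as exceptions. Colours end at 0.8 in either direction.

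Among glycolytic genes, libraries of the same treatment differed by library. The median deviation of the 18 glycolytic genes from the mean of all libraries was 0.12, -0.064 and -0.13 in DTA-1 replicates 1 to 3, against 0.38, -0.18 and -0.064 in IgG2b replicates 1 to 3, on the log2 scale. IgG2b replicate 1 was the highest library for 13 of the 18 genes. For the 5 pentose phosphate genes the medians were 0.13, 0.041 and -0.059 with DTA-1 and 0.072, -0.55 and 0.11 with IgG2b, with IgG2b replicate 2 alone far from the rest. For the 13 pyruvate dehydrogenase and TCA genes all 6 medians lay between -0.078 and 0.067. Across the 36 genes, the deviation in IgG2b replicate 2 had a Pearson correlation of -0.549 with transcript GC content, and that in DTA-1 replicate 3 had one of -0.495. In the other libraries the correlation lay between 0.163 for DTA-1 replicate 2 and 0.393 for IgG2b replicate 1. These values are a description over genes of shared libraries.

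Other genes of these pathways were described from 6 further lists, of which 83 of 105 genes were tested. None passed over all genes, at 0 higher and 0 lower in each list. Among 10 tested transporters, Slc2a6, a lysosomal hexose transporter gene, measured 43.7, 32.3 and 26.1 FPKM with DTA-1, against 11.3, 9.73 and 19.2 FPKM with IgG2b, without overlap (log2 fold change 1.31 ± 0.26, limma adjusted p = 0.101). Slc2a3, which encodes the high-affinity glucose transporter GLUT3, measured 9.95, 14.7 and 15.4 FPKM with DTA-1 against 27.9, 16.5 and 18.6 FPKM with IgG2b, also without overlap (-0.61 ± 0.22, limma adjusted p = 0.275). These were 2 of 10, or 20.0%, near the 21.6% of all tested genes. Slc2a1, the gene of the main glucose transporter GLUT1, averaged 44.7 ± 3.79 FPKM with DTA-1 and 37.3 ± 7.57 FPKM with IgG2b, and Slc16a1, a lactate and pyruvate transporter gene, 26.3 ± 1.81 FPKM with DTA-1 and 34.2 ± 9.39 FPKM with IgG2b, both with overlap.

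In a list of glycolytic isoenzymes, regulators and genes of related name outside the 36 genes, 2 of 14 tested (14.3%) were without overlap, against 21.6% of all tested genes. Eno2, the neuronal enolase gene, measured 3.30, 1.83 and 1.88 FPKM with DTA-1 against 0.911, 1.02 and 1.27 FPKM with IgG2b (log2 fold change 0.67 ± 0.19, limma adjusted p = 0.173), at levels well under those of Eno1. Tigar, which lowers fructose 2,6-bisphosphate, had 10.8, 9.57 and 9.44 FPKM with DTA-1 and 8.05, 8.84 and 7.57 FPKM with IgG2b. Pgm2 and Pgam5 overlapped between the groups. Among 7 further pentose phosphate genes none was without overlap, with log2 fold changes from -0.18 for Prps2 and -0.16 for Rpe to 0.071 for Shpk, and -0.093 for Rbks.

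Of 21 further pyruvate dehydrogenase and TCA genes, 2 were higher and 1 lower without overlap, together 14.3% against 21.6% of all tested genes. Dlst, the succinyltransferase of the 2-oxoglutarate dehydrogenase complex, measured 59.1, 53.9 and 51.3 FPKM with DTA-1 against 42.6, 45.7 and 45.5 FPKM with IgG2b (log2 fold change 0.29 ± 0.11, limma adjusted p = 0.289). Aco1, the cytosolic aconitase gene, averaged 12.6 ± 0.294 FPKM with DTA-1 and 10.5 ± 1.21 FPKM with IgG2b, and Ogdhl 1.17 ± 0.246 FPKM with DTA-1 and 1.74 ± 0.261 FPKM with IgG2b. Idh3g, a regulatory subunit gene, overlapped, at 88.8 ± 5.19 FPKM with DTA-1 and 75.0 ± 13.3 FPKM with IgG2b. In the list of anaplerosis, citrate export and glutaminolysis, 1 of 13 genes (7.69%) was without overlap: Me2, a mitochondrial malic enzyme gene, at 34.2, 36.7 and 42.0 FPKM with DTA-1 against 51.8, 51.8 and 42.6 FPKM with IgG2b (-0.36 ± 0.13, limma adjusted p = 0.271). Got2, Me1 and Slc25a10 had log2 fold changes of -0.19, -0.24 and -0.40 with overlap.

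Genes known to respond to hypoxia outside glycolysis did not share a direction: 8 of 18 tested lay above 0 and 10 below, with a median of -0.09. Bnip3, a mitophagy receptor gene, measured 21.5, 17.5 and 19.3 FPKM with DTA-1 against 46.9, 30.8 and 29.0 FPKM with IgG2b (log2 fold change -0.81 ± 0.19, limma adjusted p = 0.131). Egln3, a prolyl hydroxylase gene of the HIF pathway, had 3.73, 3.79 and 3.80 FPKM with DTA-1 against 11.5, 4.35 and 5.60 FPKM with IgG2b (-0.67 ± 0.28). P4ha2, a collagen prolyl hydroxylase gene, had 21.2, 13.4 and 11.8 FPKM with DTA-1 against 5.96, 6.66 and 5.97 FPKM with IgG2b (1.16 ± 0.20, limma adjusted p = 0.0817). Bnip3, Egln3 and P4ha2, 3 of 18 genes (16.7%, against 21.6% of all tested genes), were without overlap, Bnip3 and Egln3 lower and P4ha2 higher with DTA-1, while Ero1l, an oxidase gene of the endoplasmic reticulum, averaged 308 ± 69.4 FPKM with DTA-1 and 408 ± 64.7 FPKM with IgG2b and overlapped.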

How the data were processed

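The authors deposited 1 table per library, listing gene symbols with 1 value each. Neither the labels nor the file headers name the unit. The deposited values were read as FPKM: low values multiplied by transcript length move in steps of constant size, and this step gave the estimate of fragments per library (genes with 1 GENCODE M21 transcript). The step was sought only within a fixed range, from 166 to 214 genes per library. That range bounds the estimates, so part of their likeness may come from it. Per the submitters' processing notes, reads were aligned with TopHat to mm10, and per the labels' protocols the library kit was directional. The quantifying program, its annotation and whether it used strand are not stated by these sources. Sample titles gave the group and replicate number. For replicates 2 and 3 the treatment tag names other antibody numbers than the title, and the title was followed.

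The test covered the 10501 genes that reached 1 FPKM in 3 or more libraries. limma 3.58.1 (R 4.3.3) was fitted to log2(FPKM + 1) with group alone as a term, variance moderated with a mean trend and robustly, a threshold of 0.05, and Benjamini-Hochberg adjustment over every gene tested; p-values are 2-sided. Because 1 is added, low genes show smaller fold changes than their FPKM ratios. The procedure was tested on simulated data. Pathway medians, sums and shares are descriptions without a test, since 3 against 3 libraries cannot go under 0.1 in an exact permutation test. The members, lists and tests were chosen with earlier results of these data known. All 36 enzyme genes are named; from each further list, the rule took every gene past the threshold or otherwise up to 4 with the smallest unadjusted p, and Eno1b was added for its likeness to Eno1. Alternatives covered the pseudocount, filter, scaling, moderation, library weights, replicate block and left-out libraries, plus, chosen after seeing the data, correction of each library for its trend with transcript GC and length (mgcv 1.9.3; 95.5% of listed genes had a length, from the longest GENCODE M21 transcript). Libraries of a group differed by 15.5 to 134 times the counting noise, in mean squared difference, so none was treated as a copy. Plots used matplotlib 3.10.9 and Python 3.11.15.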

Additional observations from a re-analysis of the deposited data

How the results depend on the processing

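No enzyme gene reached an adjusted p under 0.05 in limma under any alternative run. The smallest was 0.0601, for Pkm with library quality weights. These weights were 5.95 for DTA-1 replicate 2 and 0.263 to 1.77 for the other libraries, so fits with weights rest largely on that library for DTA-1. Over all genes, 3 were called higher and 1 lower. The number higher was 1 with no filter, 1 with GC and length trends removed, 6 without replicate 1 of both groups, 161 with quality weights, and 1 to 3 with 1 library left out. The number lower was 2 with equal totals and 314 with quality weights. Deviations of same-numbered libraries correlated at 0.393, -0.101 and -0.129 for replicates 1 to 3. Across numbers, the correlation was 0.485 for DTA-1 replicate 3 with IgG2b replicate 2. It was 0.385 for DTA-1 replicate 2 with IgG2b replicate 3, and below 0 for the remaining combinations. Whether the libraries were paired was not tested. With the block by replicate number, 59 genes were called higher and 126 lower, none an enzyme gene. Among the genes named from the 6 further lists, 3 passed with the replicate block and with weights: Slc2a6 (limma adjusted p = 0.0469 and 0.0305, up to 0.3495 under other alternatives), P4ha2 (0.0339 and 0.00968, up to 0.2273) and Bnip3 (0.0439 and 0.0162, up to 0.3717). Of the cell markers named, some also passed under an alternative. Their smallest limma adjusted p was 0.00803 for Il13, 0.0141 for Epcam, 0.0292 for Il1rl1 and 0.0408 for Il5. The 10 proliferation markers each passed under an alternative too, though 0 did in the main fit. Their smallest limma adjusted p ran from 0.013 for Pcna to 0.0447 for Mki67 and Top2a.

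Enzyme genes lower at an unadjusted p under 0.05 numbered 2 with equal totals, with the replicate block and with weights, and 1 to 2 with 1 library left out, or at most 5.56% of them, against 5.35% to 10.6% of all genes tested over the alternatives; those higher numbered 0 to 1, with 0 without DTA-1 replicate 1, IgG2b replicate 2 or IgG2b replicate 3, where the share of all genes was 3.65%, 6.61% and 7.11%. Higher genes without overlap numbered 2 with median-ratio scaling, 2 with trends removed, 5 without both replicates 1, and 2 to 4 with 1 library left out. With median-ratio scaling and with trends removed they were 5.56% of the enzyme genes, against 11.2% and 13.9% of all genes. With 1 library left out they were 5.56% to 11.1%, against 13.2% to 19.1% of all genes. The 5 were 13.9% of the enzyme genes, against 20.8% of all genes in that setting. Lower ones numbered 8 without both replicates 1 (22.2%, against 19.9% of all genes) and 2 to 7 with 1 library left out, the 7 without DTA-1 replicate 1 (19.4%, against 15.1%). With any other library left out, the lower share was 5.56% to 13.9%, against 12% to 17% of all genes. With fewer libraries, groups overlap less often by construction. With 1 library left out, the median log2 fold change of glycolysis ranged from -0.17 to 0.16 and that of the pentose phosphate pathway from -0.056 to 0.26, while that of all genes ranged from 0.003 to 0.019; with weights the pentose phosphate median was -0.0525.

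The log2 fold change changed sign for 21 of 36 genes under some alternative, the largest of them Tpi1, and kept it for 15. The cause was not tested. With weights it was -0.0414 for Gpi1, -0.043 for Pfkm, -0.0525 for Tkt, 0.0408 for Idh3a and 0.0411 for Fh1. With equal totals it was -0.0204 for Pfkm and -0.0036 for Pdhb. With trends removed it was -0.0437 for Pfkm, 0.0404 for Idh1, 0.0081 for Idh3a and 0.0122 for Fh1. Without both replicates 1 it was 0.1093 for Pfkl, -0.136 for Pdhb, 0.0811 for Idh2, 0.0027 for Idh3a and 0.0107 for Fh1. With 1 library left out it ranged from -0.1383 to 0.003 for Hk1, -0.1708 to 0.2155 for Gpi1, -0.2746 to 0.2743 for Pfkl, -0.1608 to 0.2148 for Pfkm, -0.2741 to 0.1581 for Aldoa, -0.4532 to 0.019 for Tpi1, -0.1709 to 0.3487 for Gapdh, -0.2882 to 0.0052 for Pgk1, -0.1354 to 0.2793 for Pgam1 and -0.1286 to 0.3881 for Eno1. It ranged from -0.1811 to 0.2596 for Tkt, -0.1178 to 0.0228 for Taldo1, -0.0563 to 0.4159 for Pgls, -0.0979 to 0.2211 for Pdhb, -0.0036 to 0.1218 for Cs, -0.1675 to 0.075 for Idh1, -0.2227 to 0.0867 for Idh2, -0.1183 to 0.0451 for Idh3a, -0.0049 to 0.1472 for Ogdh, -0.0718 to 0.0351 for Fh1, -0.1613 to 0.0734 for Sucla2 and -0.0843 to 0.1998 for Shpk.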

Other observations

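The SD of the IgG2b libraries in FPKM was larger than that of the DTA-1 libraries for 32 of the 36 enzyme genes (88.9%), including all 18 of glycolysis, 3 of 5 of the pentose phosphate pathway and 11 of 13 of the pyruvate dehydrogenase and TCA group. Over all 10501 tested genes the share was 72.2%. Pkm had an SD of 6.25 FPKM with DTA-1 and 92.7 FPKM with IgG2b, and Ldha 16.5 FPKM with DTA-1 and 309 FPKM with IgG2b. limma fits 1 variance per gene to both groups, so the intervals given for these genes average over this difference.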
